A study of Mus musculus with 4 samples.

Results

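The interferon regulatory factor (Irf) genes Irf1, Irf2, Irf3, Irf4, Irf5, Irf7, Irf8 and Irf9 were examined in ATAC-seq peak lists from mouse macrophages of wild-type and histone H3.3 conditional knockout (H3.3 cKO) mice. Members were chosen by name, and every peak overlapping a gene body or the 20 kb on both sides of it (70 kb downstream of Irf8) was taken. Peaks from different lists were joined into 1 region where they shared at least 1 bp, which gave 75 regions in windows of 555 kb in all, out of 71243 merged regions in the genome. ATAC-seq uses the Tn5 transposase to cut and tag open chromatin, so a peak marks accessible DNA.

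Bone marrow-derived macrophages (BMDMs) were grown from bone marrow in medium with 20% L929-conditioned medium and 10% FBS, for 6 to 8 days per the labels and to day 7 for ATAC-seq per the study's text. WT cells carried H3f3a fl/fl and H3f3b fl/fl without Cre, and H3.3 cKO cells carried the same floxed alleles with LysM cre/cre, all on the C57BL/6 background. H3f3a and H3f3b are the genes for the replication-independent histone variant H3.3. Mice in the study were 8 to 10 weeks old and of both sexes, and each genotype had 2 biological replicates. LysM-Cre is expressed from the Lyz2 locus, so deletion occurs in myeloid cells as they mature, and the Cre allele itself differs between the genotypes and cannot be told apart from the H3.3 deletion. The lists held 55742 and 64939 peaks in WT (replicates 1 and 2, the order used throughout) and 51955 and 60884 in cKO, and read depth was unknown. In the H3f3a window, the region over floxed exon 2 was called only in WT (percentiles 5.02 and 19.1, against no peak in either cKO list), whereas a region over coding exons of H3f3b, which the study floxed over exons 1 to 4, was called in all 4 lists, at 94.2 and 95.5 in WT against 87.0 and 81.4 in cKO. The lists thus do not show the loss of H3f3b, whose deletion the study describes as variable. Start sites of 6 of 6 macrophage markers were called in all 4 lists, and those of 3 fibroblast and 2 mast cell markers in none. Those of 3 of 3 dendritic cell, 1 of 3 B cell and 1 of 4 neutrophil markers were also called in all 4, so these calls do not single out macrophages.

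IRFs are transcription factors with a conserved DNA-binding domain that recognises GAAA-containing elements, alone or as composites with partners such as PU.1. IRF3, IRF5 and IRF7 are activated by signalling from pattern recognition receptors and induce type I interferons, IRF9 joins the STAT complex that interferon receptors activate, and IRF1 and IRF2 act on overlapping elements as activator and as mostly a repressor. IRF4 and IRF8 act with PU.1 and other partners, and IRF8 sets the monocyte and macrophage lineage apart from granulocytes in bone marrow.

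Each peak was described by the authors' peak area, the area under the significance curve of the peak caller, as its percentile within its own list. Area grows with peak width and depth, so percentiles of a region were compared between lists and not between genes. A region was lost if both WT lists and neither cKO list called it, and gained if both cKO lists and neither WT list did. Of the 75 Irf regions, 51 were called in all 4 lists, 9 were lost, 0 were gained and 15 had other combinations. Over all regions of the genome, 7.25% were lost and 3.72% gained, so the count of lost Irf regions lay above the background and that of gained regions below it. With all lists set to equal length, 6.30% of all regions were lost and 6.07% gained, against 10 and 0 of the 75 Irf regions. The excess of lost over gained regions in the genome thus depended largely on list length. Lost regions were found at 5 of the 8 genes, 3 at Irf8, 3 at Irf2 and 1 each at Irf1, Irf3 and Irf4, while 26.4% of protein-coding gene windows that held a region had at least 1 lost region. None of the 8 genes had a gained region, against 13.5% of gene windows with at least 1. At least 3 lost regions within 20 kb of the gene were found at 368 of 17263 genes (2.13%), with Irf2 and Irf8 among them, and both also held many regions: 254 genes (1.47%) had at least the 21 of Irf2 and 1354 (7.84%) at least the 12 that Irf8 had within 20 kb. Most lost Irf regions were weak in WT. When peaks below the median area of their list were left out, 1 of the 9 was still lost and 3 Irf regions met the criterion in all, against 3.51% of all regions, while leaving out cKO replicate 2 raised the count to 16, against 12.7% of all regions.

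**Figure D1:**
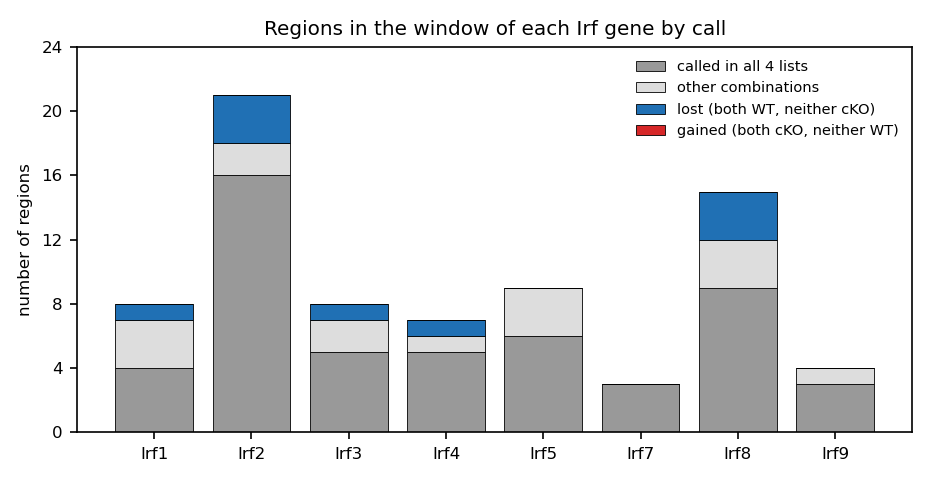
Number of merged regions in the window of each Irf gene (bars), divided by the lists that called them. Irf2 (21 regions) and Irf8 (15 regions) held 3 lost regions each, and no gained region is seen at any gene.

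For the regions called in all 4 lists, the rank of the strongest peak was turned into a normal score and the genotypes were compared with limma over all 44820 such regions. With ranks among all peaks of a list, 0 Irf regions and 0% of all regions passed an adjusted p of 0.05, and 9 of the 51 Irf regions had an unadjusted p under 0.05, against 10039 of all 44820 (22.4%). Ranks of shared regions moved with list length on this scale, their median percentile lying at 59.1 and 65.0 in WT against 56.1 and 62.6 in cKO. With ranks among the shared regions alone, which removes that shift, 3 Irf regions were higher in cKO (background 11.8%) and 5 were lower (background 11.5%). The median difference, cKO minus WT, was 0.0408 normal score units over the 51 Irf regions and 0.00398 over all shared regions. Percentiles of both cKO lists lay above both WT lists at 13 Irf regions (background 22.2%) and below both at 18 (background 35.1%). Counted over the 8 genes together, these shares lay near or below those of the genome. All adjusted p-values given below are Benjamini-Hochberg values of limma on ranks among the shared regions. The 8 calls rested on all 4 libraries: leaving out WT replicate 1, WT replicate 2 or cKO replicate 1, limma called 0 regions of the series (12815 of 47428, 13102 of 44920 and 16534 of 48718 with an unadjusted p under 0.05), and without cKO replicate 2 it called 1 of the 8.

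**Figure D2:**
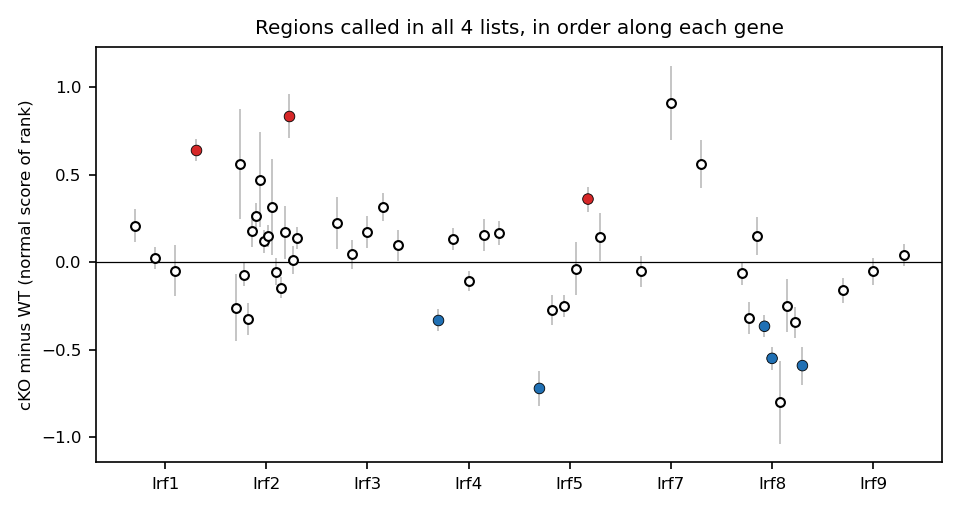
Difference in normal score of rank (cKO minus WT, ranks among shared regions; bars, 1 standard error of limma) for the 51 Irf regions called in all 4 lists, in the order of each gene. Filled points passed an adjusted p of 0.05 (3 higher, 5 lower), and 3 of the lower ones belong to Irf8.

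Irf8 had the most regions on the lower side in cKO. Its window (gene at chr8:120736358-120756694, forward strand, ENSMUSG00000041515.10) held 15 regions, of which both WT lists called 15, cKO replicate 1 called 9 and cKO replicate 2 called 12. Of the 9 shared regions, 8 had both cKO percentiles below both WT percentiles (background 35.1%) and none had both above (background 22.2%). Their median difference was -12.4 percentile points, and 3 of the 9 passed limma as lower in cKO (background 11.5%). The median difference in normal score was -0.344, the lowest of the 8 genes. In bulk cells, fewer cells with an open region and less opening per cell cannot be told apart. RNA was not examined here. The study describes its RNA-seq tracks of Irf8 as equal in both genotypes of BMDM, without a value or test for the gene. Lower peak values are not a measure of Irf8 RNA, and their relation to it was not tested. The whole window also lies inside the annotated long gene Gm20388, so the regions upstream and downstream of Irf8 were not between genes in this annotation.

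The Irf8 start-site region (chr8:120735773-120736900, over the first exon of Irf8-201) had percentiles of 80.0 and 83.8 in WT against 68.4 and 72.2 in cKO. Both cKO libraries were lower than both WT libraries, and the difference of -0.366 normal score units (SE 0.0622) passed the test (limma adjusted p = 0.0326). Its peaks also differed in extent, at 1017 and 1128 bp in WT against 821 and 956 bp in cKO. The annotated promoter (RefSeq, GRCm38.p6, chr8:120736108-120736407, forward strand, 250 bases before to 50 after the start) held 2 matches of the GAS element TTCNNNGAA, which STAT dimers bind, shown in capitals because interferon gamma induces Irf8 through such an element:
Irf8 promoter: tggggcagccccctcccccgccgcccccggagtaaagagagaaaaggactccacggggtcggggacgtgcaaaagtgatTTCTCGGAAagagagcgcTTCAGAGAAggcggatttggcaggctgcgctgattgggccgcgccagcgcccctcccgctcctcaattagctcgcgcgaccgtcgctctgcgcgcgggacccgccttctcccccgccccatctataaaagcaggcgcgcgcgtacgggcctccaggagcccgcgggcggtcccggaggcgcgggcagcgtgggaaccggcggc

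A second start site, of transcript Irf8-205 in intron 1 (+1.12 kb, measured from the start of the gene to the centre of the region), was called at percentiles 44.9 and 52.1 in WT, was not called in cKO replicate 1 and lay at 22.4 in cKO replicate 2. The strongest region inside the gene lay over exon 3, a coding exon (+7.46 kb, chr8:120743401-120744228), at percentiles 82.5 and 86.3 in WT against 66.2 and 70.2 in cKO. This was the lowest adjusted p among the Irf8 regions (difference -0.549, SE 0.0646, limma adjusted p = 0.0198). Peaks there were 812 and 817 bp wide in WT against 645 and 627 bp in cKO, and the areas were 1605 and 1979 in WT against 948 and 1112 in cKO.

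All 3 lost regions of Irf8 lay in introns 2 and 3, on both sides of that exon. In intron 2, the +4.66 kb region had WT percentiles of 26.2 and 25.7. The +6.41 kb region, also in intron 2, had WT percentiles of 32.0 and 44.5. The third, at +9.11 kb (chr8:120745177-120745754), was centred in intron 3, reached exon 4 and had WT percentiles of 57.8 and 65.8, and it was the only one of the 9 lost Irf regions that was above the list median in both WT lists. Further into the gene, the +14.5 kb region in intron 6 was called in all lists at 23.7 and 38.0 in WT against 3.22 and 23.1 in cKO (limma adjusted p = 0.0838). The sequences of 201 bases around the highest summit of the exon 3 region (chr8:120743646-120743846) and of the +9.11 kb lost region (chr8:120745337-120745537), both given on the forward strand of mm10, are shown as the sites with the lowest adjusted p and the strongest lost peak of the gene. Neither held a match of the motifs searched (named with the motif counts), so all letters are in lower case:
Irf8 exon 3 region: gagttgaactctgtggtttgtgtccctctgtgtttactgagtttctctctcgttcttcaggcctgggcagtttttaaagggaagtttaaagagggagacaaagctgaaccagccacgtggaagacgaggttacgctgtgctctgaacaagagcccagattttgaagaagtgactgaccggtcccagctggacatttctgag
Irf8 intron 3 region: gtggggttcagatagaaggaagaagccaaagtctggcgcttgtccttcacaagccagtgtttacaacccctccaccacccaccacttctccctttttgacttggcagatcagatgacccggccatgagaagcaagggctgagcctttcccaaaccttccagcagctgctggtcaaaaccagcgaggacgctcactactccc

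Enhancers downstream of Irf8 are known to act on the gene in myeloid cells. Downstream of the gene 5 regions were found, 3 of them shared. Both WT libraries were above both cKO libraries at each of these 3 (background 35.1%), and 1 of them passed the test. At +56.5 kb (chr8:120792571-120793129) the percentiles were 46.5 and 49.6 in WT against 24.5 and 31.0 in cKO, and the region passed as lower in cKO (difference -0.590, SE 0.108, limma adjusted p = 0.0364). The neighbours at +50.2 kb and +60.1 kb were called in both WT lists, at 39.4 and 51.8 and at 21.4 and 33.6, and in cKO only by replicate 2, at 0.921 and 4.17. Nearer to the gene, the +27.1 kb region lay at 76.8 and 75.6 in WT against 60.6 and 66.8 in cKO (limma adjusted p = 0.0657), and the +23.8 kb region at 38.1 and 37.1 against 22.7 and 31.9 (limma adjusted p = 0.287). The window around the summit of the +56.5 kb region (chr8:120792749-120792949, forward strand, mm10) held 1 match of the PU.1 motif GAGGAAGT, in capitals, and is shown because this was the only downstream region past the test:
Irf8 +56.5 kb region: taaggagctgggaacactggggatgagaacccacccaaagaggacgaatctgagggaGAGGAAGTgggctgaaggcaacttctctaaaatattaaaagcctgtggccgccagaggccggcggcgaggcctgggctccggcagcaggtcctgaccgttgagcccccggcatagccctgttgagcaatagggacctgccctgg

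Upstream of Irf8 the picture was more mixed. The -20.1 kb region lay at 77.9 and 79.2 in WT against 73.3 and 77.0 in cKO (limma adjusted p = 0.512), and the -16.3 kb region at 63.9 and 72.4 against 54.8 and 56.7 (limma adjusted p = 0.0823). At -10.9 kb the genotypes overlapped, at 21.9 and 38.2 in WT against 28.2 and 34.7 in cKO. This was the only shared Irf8 region in which they did.

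Peaks covered 7.56 and 7.74 kb of the Irf8 window in WT against 3.98 and 5.07 kb in cKO, a difference of -3.12 kb between the means. With 2 libraries a genotype, an exact two-sided permutation test over the 6 assignments of labels cannot go below p = 0.33, which is the value it gave. Markers of macrophages and of other cell types at their start sites lay on either side beside these results. Over all shared regions of the genome, both cKO lists lay below both WT lists at 35.1% and above them at 22.2%. Of 6 macrophage markers, both cKO lists lay below both WT lists at Csf1r (73.7 and 85.3 in WT against 56.4 and 61.4 in cKO) and Mertk (89.3 and 92.8 against 73.9 and 79.1) and above them at Cd68 (91.2 and 89.7 against 92.7 and 92.7), and the genotypes overlapped at Adgre1, Itgam and Fcgr1. Of 3 dendritic cell markers, Flt3 lay at 24.2 and 37.3 in WT against 47.0 and 53.9 in cKO, Siglech at 10.9 and 31.9 against 43.2 and 55.5, and Zbtb46 at 69.0 and 74.1 against 39.6 and 56.5. Of 4 neutrophil markers, S100a8 lay at 76.5 and 78.3 in WT against 50.3 and 64.0 in cKO, Ly6g was called only in cKO at 30.3 and 17.8, and Mpo and Elane were called in no list. Of 3 B cell markers, Ms4a1 was called at 3.56 and 23.5 in WT against 28.5 and 35.5 in cKO and the other 2 in no list, and of 3 T cell markers Cd2 was called only in WT replicate 2 and the others in no list. Their part in the Irf8 values was not tested.

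**Figure D3:**
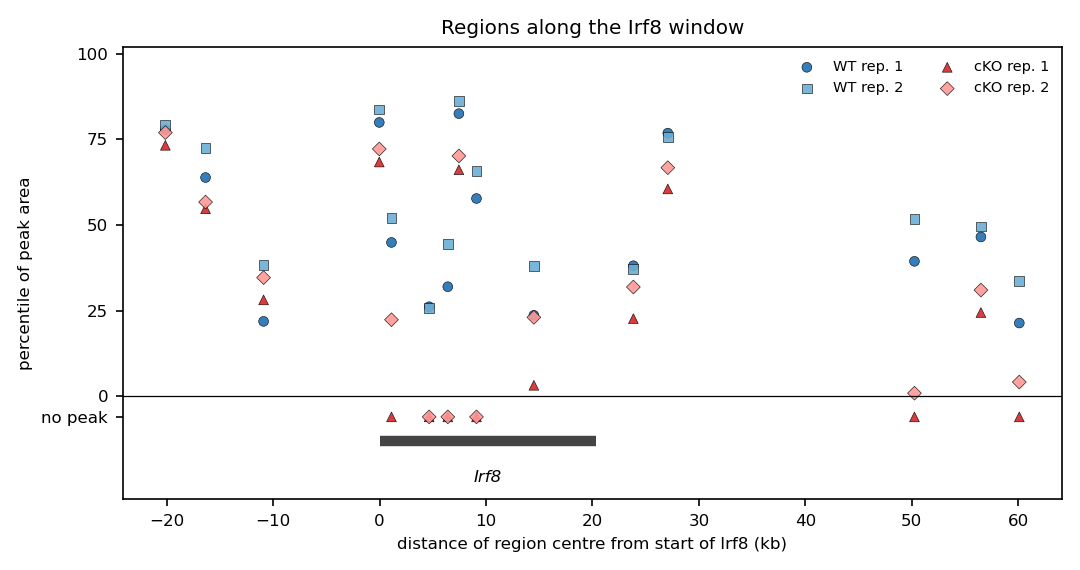
Percentile of peak area in each of the 4 lists (points) for the 15 regions of the Irf8 window against the distance of the region from the start of the gene in kb, with lists that had no peak drawn under the line and the gene body as a dark bar. WT points lie above cKO points at every region but the one at -10.9 kb, and cKO points on the line marked no peak cluster at 4.66 to 9.11 kb.

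Irf4, the close relative of Irf8 that is induced in alternatively activated macrophages and lymphocytes (chr13:30749226-30766976, forward strand), had 7 regions, of which 5 were shared and 1 was lost. Its -10.6 kb region (chr13:30738353-30738853) lay at 78.6 and 80.9 in WT against 66.5 and 70.7 in cKO and passed as lower (difference -0.331, SE 0.0612, limma adjusted p = 0.0370). The start-site region lay at 63.3 and 67.3 in WT against 64.8 and 69.3 in cKO, so there the libraries of the genotypes overlapped. The lost region at -4.53 kb was among the weakest of its lists, at percentiles 9.70 and 1.16 in WT, and was no longer lost when all lists were set to equal length. At the other 3 shared regions of Irf4 the genotypes overlapped.

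Irf5, which drives inflammatory cytokine genes downstream of Toll-like receptors (chr6:29526625-29541871, forward strand), had regions that differed in opposite directions along 1 locus. The gene had 9 regions, 6 shared and none lost or gained. Transcript Irf5-202 starts inside intron 1 of the longer transcript, and the region over its start (+2.27 kb, chr6:29528063-29529731) lay at 85.9 and 89.3 in WT against 91.6 and 93.8 in cKO. It passed as higher in cKO (difference 0.360, SE 0.0712, limma adjusted p = 0.0410). Peaks there were 684 and 1301 bp wide in WT against 1398 and 1669 bp in cKO, and the WT replicate 1 peak covered 41.0% of the merged region. At the first start site of Irf5, by contrast, the percentiles were 66.6 and 63.6 in WT against 53.2 and 68.2 in cKO and overlapped.

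Upstream of Irf5 the values were lower in cKO. The -13.1 kb region (chr6:29513303-29513677) lay at 52.6 and 55.4 in WT against 21.2 and 36.7 in cKO and passed the test (difference -0.721, SE 0.0978, limma adjusted p = 0.0235). The -9.23 kb region lay at 56.1 and 57.4 in WT against 40.3 and 49.1 in cKO (limma adjusted p = 0.0965), and the strong -2.28 kb region at 92.0 and 92.9 against 87.1 and 88.5 (limma adjusted p = 0.0586). Neither passed the test, although both cKO libraries were below both WT libraries in each. Between these, the -3.71 kb and -3.09 kb regions were each called in both WT lists, at 23.1 and 40.1 and at 14.2 and 36.2, and in 1 cKO list each, at 9.34 and 4.26. The summit windows of both Irf5 regions past the test are shown because they moved in opposite directions (chr6:29529156-29529356 and chr6:29513368-29513568, forward strand, mm10). In the Irf5-202 start region, the capitals mark an AP-1 match (TGANTCA) and a run in which 2 matches of the IRF element AANNGAAA and 1 of the PU.1-IRF composite GGAANNGAA overlap on the reverse strand. In the -13.1 kb region, they mark 1 IRF element on the reverse strand and 1 GAS element:
Irf5-202 start region: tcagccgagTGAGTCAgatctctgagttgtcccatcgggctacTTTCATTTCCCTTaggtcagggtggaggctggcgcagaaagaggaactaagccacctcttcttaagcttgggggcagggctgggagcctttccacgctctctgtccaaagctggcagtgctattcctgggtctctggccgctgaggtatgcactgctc
Irf5 -13.1 kb region: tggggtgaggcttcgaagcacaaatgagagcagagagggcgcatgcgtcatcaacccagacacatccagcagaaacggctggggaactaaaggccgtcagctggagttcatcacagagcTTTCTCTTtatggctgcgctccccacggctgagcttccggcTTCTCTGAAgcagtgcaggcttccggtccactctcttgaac

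Irf7, the interferon-inducible factor that amplifies type I interferon production (chr7:141262706-141266481, reverse strand), had 3 regions, all shared, and both cKO libraries were above both WT libraries at the 2 regions over the gene. The start-site region (chr7:141265894-141266612) lay at 27.0 and 53.2 in WT against 62.9 and 70.2 in cKO, the largest percentile difference among the shared Irf regions (26.5 points). Its difference of 0.908 normal score units (SE 0.212) did not pass the test (limma adjusted p = 0.0552). In WT replicate 1 the site was called as 2 peaks of 217 and 286 bp, against 1 peak of 608, 719 and 709 bp in the other lists. The planned fit on summed peak areas, ranked over the whole list, called 0 of the 44820 shared regions higher. With summed areas ranked among shared regions, an alternative added after the data were seen, the start-site region did pass as higher, as did 5680 of the 44820. The adjoining region over exons 2 to 5, which are coding, lay at 42.1 and 59.5 in WT against 61.4 and 71.3 in cKO (difference 0.562, SE 0.136, limma adjusted p = 0.0590). The remaining region, upstream at -2.49 kb, lay at 83.9 and 88.7 in WT against 81.7 and 86.7 in cKO and overlapped between the genotypes.

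Irf7 was the only one of the 8 genes with more covered sequence in both cKO lists than in both WT lists, at 1.91 and 2.11 kb in WT against 2.41 and 2.70 kb in cKO (exact permutation p = 0.33, the smallest possible). Both regions at the gene passed as higher in cKO when log2 peak areas were tested in place of ranks, where 9087 of the 44820 shared regions of the genome did. The Irf7 promoter (RefSeq, GRCm38.p6, chr7:141266375-141266674, reverse strand) is shown because the start-site region lies over it, and none of the motifs searched matched in it:
Irf7 promoter: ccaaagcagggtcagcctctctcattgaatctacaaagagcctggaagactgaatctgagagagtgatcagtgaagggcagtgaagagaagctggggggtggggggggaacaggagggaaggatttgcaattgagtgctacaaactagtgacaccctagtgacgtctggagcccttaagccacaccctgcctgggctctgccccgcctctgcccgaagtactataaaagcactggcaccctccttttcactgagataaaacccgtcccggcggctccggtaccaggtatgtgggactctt

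**Figure D4:**
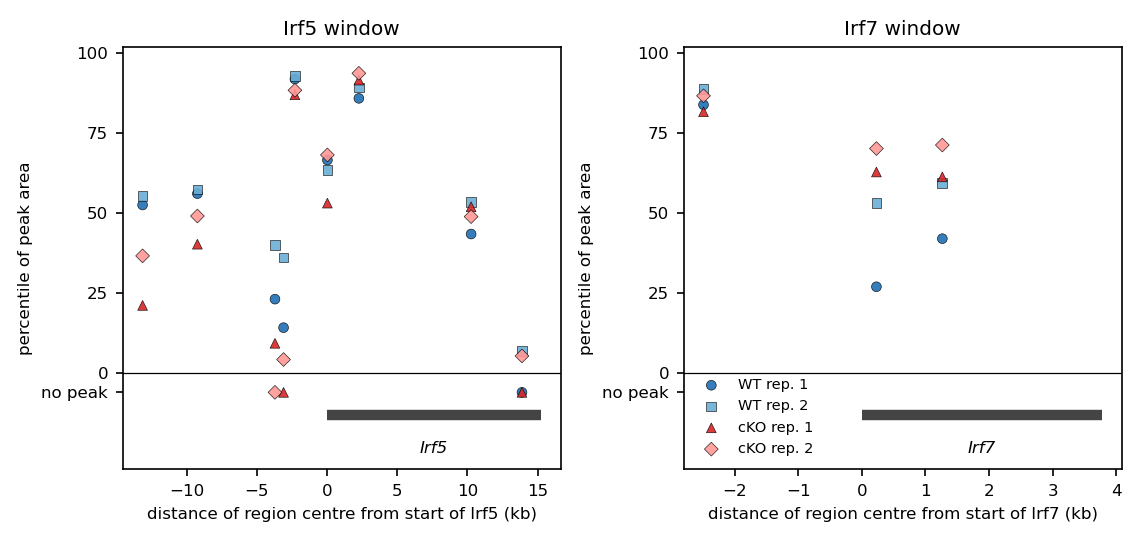
Percentile of peak area in each of the 4 lists (points) for the regions of Irf5 (left, 9 regions) and Irf7 (right, 3 regions) against distance from the start of the gene in kb, in the direction of transcription, with the gene body as a dark bar. At Irf5 the cKO points lie below the WT points at -13.1 kb and above them at +2.27 kb, and at Irf7 they lie above the WT points at both regions inside the gene.

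Irf3, the constitutively expressed factor that TBK1 activates (chr7:44997648-45002848, forward strand), had no shared region past the test. Its start-site region, which is also the promoter of the divergent gene Bcl2l12, lay at 79.0 and 79.0 in WT against 78.4 and 84.9 in cKO. Of its 8 regions, 5 were shared. At the +18.5 kb region, at the promoter of Scaf1, the percentiles were 85.1 and 87.5 in WT against 91.5 and 90.7 in cKO (limma adjusted p = 0.0626), and it passed as higher when log2 areas were tested. The strongest, at the promoters of Rras and Scaf1 20.0 kb away, lay at 96.9 and 96.7 in WT against 97.5 and 97.0 in cKO (limma adjusted p = 0.452). The lost region of this window lay inside Rras, at WT percentiles 11.8 and 21.8.

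Irf1, which interferon gamma induces, and Irf2, its counterpart on the same elements, each had 1 region higher in cKO downstream of the gene. Irf1 (chr11:53770014-53778374, forward strand) had 8 regions, of which 4 were shared. The +25.1 kb region (chr11:53794665-53795543), inside the annotated gene Gm12216, lay at 72.2 and 77.8 in WT against 87.8 and 89.6 in cKO. It had the lowest adjusted p of all Irf regions (difference 0.639, SE 0.0634, limma adjusted p = 0.0168). The start-site region of Irf1 lay at 77.5 and 81.6 in WT against 76.8 and 80.7 in cKO, with no separation of the genotypes. The lost region was in intron 2, at WT percentiles 6.65 and 16.2, and was not lost with lists of equal length. The -6.47 kb region, the strongest of the window, lay at 93.7 and 93.1 in WT against 95.6 and 95.0 in cKO (limma adjusted p = 0.174).

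Irf2 (chr8:46739732-46847458, forward strand) is the longest of the 8 genes and had 21 regions, 16 of them shared. The region past the test lay at +111 kb, beyond the end of the gene (chr8:46850349-46851031), at 27.9 and 42.6 in WT against 59.8 and 57.9 in cKO (difference 0.835, SE 0.124, limma adjusted p = 0.0265). Over the start site of Irf2-201 the percentiles were 92.1 and 92.9 in WT against 93.3 and 99.1 in cKO (limma adjusted p = 0.250), in a merged region of 2693 bp. Only cKO replicate 2 called this site as 1 peak, of 2686 bp, while the other lists split it into 2, and on ranks among all peaks the difference of 0.495 was 0.0522 without cKO replicate 2 and 0.165 with summed areas. The second start site, of Irf2-209, lay at 61.8 and 65.8 in WT against 62.9 and 67.3 in cKO and overlapped. Inside intron 1, the +49.9 kb region was higher in both cKO libraries (87.0 and 87.6 in WT, 91.2 and 91.0 in cKO) and the +25.4 kb region lower (65.8 and 65.8 in WT, 50.02 and 55.0 in cKO), and neither passed the test (limma adjusted p = 0.0768 and 0.0766). All 3 lost regions lay in introns of Irf2-201. The +30.3 kb region in intron 1 had WT percentiles of 15.5 and 23.0, the +77.7 kb region in intron 5 of 7.12 and 32.2, and the +97.5 kb region in intron 6 of 22.7 and 25.4.

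Among the promoters of the 8 genes, that of Irf2 held the most motif matches (RefSeq, GRCm38.p6, chr8:46739495-46739794, forward strand), and it is shown for the run of overlapping elements near its 5′ end. The capitals mark a run in which 2 IRF elements and 1 PU.1-IRF composite overlap, then a GAS element and an NF-kB match:
Irf2 promoter: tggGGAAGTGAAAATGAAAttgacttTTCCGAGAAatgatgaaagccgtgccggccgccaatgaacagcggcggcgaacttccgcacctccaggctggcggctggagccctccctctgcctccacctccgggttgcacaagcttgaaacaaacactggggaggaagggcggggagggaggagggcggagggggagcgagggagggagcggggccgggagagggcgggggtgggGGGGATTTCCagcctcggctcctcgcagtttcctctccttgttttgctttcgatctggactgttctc

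Irf9, the DNA-binding subunit of the complex that type I interferon receptors activate (chr14:55603571-55610030, forward strand), had 4 regions and none that passed the test. Its start-site region lay at 91.0 and 91.6 in WT against 90.1 and 92.4 in cKO (limma adjusted p = 0.664). The highest percentiles of any Irf region were at the promoters of the neighbours Psme2 and Rnf31, 99.1 and 99.0 in WT against 98.6 and 99.1 in cKO. The region at -17.1 kb, at the promoter of Emc9, lay at 46.4 and 52.6 in WT and was called in cKO only by replicate 2, at 17.3.

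By position, 10 of the 11 start-site regions of Irf genes were called in all lists and none was lost. By the annotation of their centre, including genes other than the 8, lost regions numbered 8 of 37 in introns, 1 of 17 in intergenic sequence, 0 of 13 in promoters (1 kb upstream to 100 bp downstream of a start site) and 0 of 8 in exons. Over all regions of the genome, 8.84% were lost in introns, 7.47% in intergenic sequence, 2.40% in promoters and 6.12% in exons. Start-site regions of Irf8 passed as lower and of Irf5-202 as higher, and the others did not pass in either direction.

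**Figure D5:**
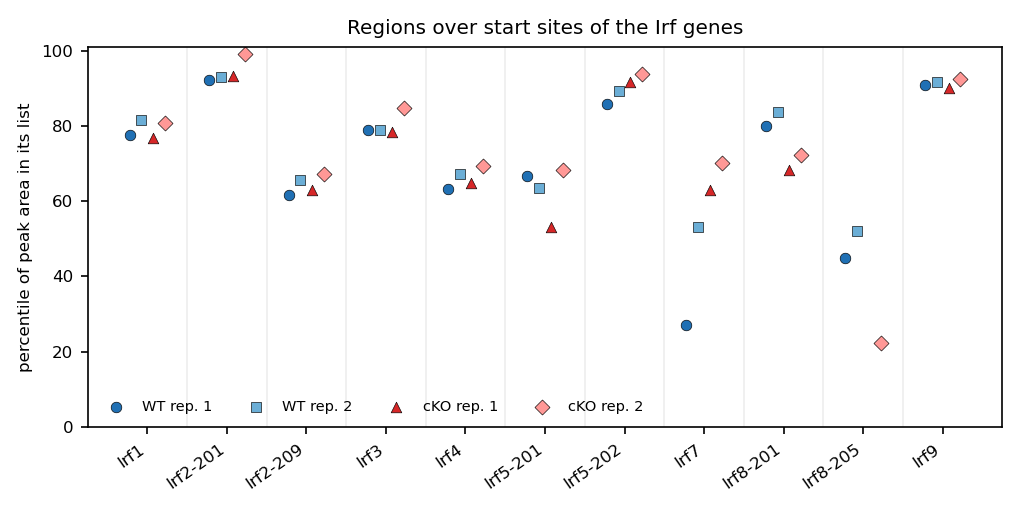
Percentile of peak area in each of the 4 lists (points) for the 11 regions over annotated start sites of Irf transcripts, where Irf8-205 had no peak in cKO replicate 1. The cKO points lie below the WT points at Irf8-201 and Irf8-205 and above them at Irf2-201, Irf5-202 and Irf7.

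Motifs were counted on both strands within 100 bp of the highest summit of each region, as a description. The IRF element AANNGAAA was found at 18 of the 75 Irf regions, against 24.7% of all regions, and the PU.1-IRF composite GGAANNGAA, which can overlap it, at 11, against 11.0%. The other counts were 7 for the GAS element TTCNNNGAA (6.10% of all regions), 8 for AP-1 TGANTCA (16.6%), 11 for PU.1 GAGGAAGT (11.0%) and 5 for NF-kB (4.85%). Of the 15 Irf8 regions, 3 held the IRF element, 4 the PU.1 motif and 2 the AP-1 motif. Of the 9 lost regions, 3 held the IRF element (29.8% of all lost regions), 2 the PU.1 motif (12.8%), 1 each the composite (14.0%), AP-1 (9.99%) and NF-kB (7.01%), and none the GAS element (7.13%). In promoters of 300 bases, the GAS element was found in 8.30% of all 32851 promoters of the table, and at Irf1, Irf2 and Irf8 among the members.

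Together, peaks covered 40.6 and 43.4 kb of the Irf windows in WT against 34.3 and 39.0 kb in cKO (42.0 ± 2.03 against 36.6 ± 3.28 kb, SD, n = 2 each). The difference of -5.35 kb was the extreme of the 6 assignments of labels (two-sided exact permutation p = 0.33, the smallest possible). Without Irf8 it was -2.22 kb (exact permutation p = 0.667), and the libraries then overlapped, at 33.0 and 35.7 kb in WT against 30.4 and 33.9 kb in cKO. Relative to all sequence covered by a list, Irf windows took 1.31 and 1.23 kb per Mb in WT and 1.21 and 1.19 kb per Mb in cKO.

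A list of 40 genes of the same pathway had 306 regions, of which 9 were gained (2.94%) and 21 lost (6.86%). The background was 3.72% gained and 7.25% lost, so both shares lay slightly below it. Of its 215 shared regions, 21 were higher in cKO (9.77%) and 36 lower (16.7%) by limma on ranks among shared regions. Among all shared regions, 11.8% were higher and 11.5% lower. The 9 partners of IRFs on DNA include PU.1 (Spi1), BATF and NF-kB subunits. Their regions were lower at 12 and higher at 2 of 54 shared regions, with 8 of 77 lost and 0 gained. Of the 12 lower ones, 6 were at Batf3 and 4 at Nfkb1, so the count rested mainly on these genes. Those of 8 interferon ligand, receptor and kinase genes were lower at 12 and higher at 3 of 45, while the 15 genes that signal to IRFs had 9 lower and 10 higher of 80. The 8 corepressors and negative regulators had 3 lower and 6 higher of 36. Genes with 2 lost regions were Traf3, an adaptor of the TBK1 pathway, Nfkb1, the p105 NF-kB subunit, Ets1, an ETS factor, and Ifnar2, a chain of the type I interferon receptor, and no gene had 2 gained regions. Traf3 and Ifnar2 each also had 1 gained region, at cKO percentiles of 6.82 and 28.8 and of 29.4 and 48.7. Chosen after their values were seen, Batf3, the partner of IRF8 in dendritic cells, was lower at 6 of 9 shared regions, and Ifngr2, a chain of the interferon gamma receptor, at 5 of 5.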

How the data were processed

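ATAC-seq was done on BMDMs of 2 WT and 2 cKO biological replicates, grouped by sample title. The authors aligned paired reads to mm10 with Bowtie2 2.5.1 and called peaks in each library with Genrich at default settings; read filters and transposase shifts were not given in the sources used here. The deposited signal (column 7) is the area under the significance curve, at least 200, and the other columns were only described: the authors' score, limited at 1000, the −log10 p at the summit, and a q-value column of −1 deposited as a score. Read depth is unknown, so no counting error could be given, and a site just under the limit is missing from a list.

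Areas were used as percentiles within a list. Regions were classified with GENCODE vM21, start sites being those of its basic transcripts, and coordinates are 1-based. Normal scores of ranks were fitted with limma 3.58.1 (R 4.3.3; checked on simulated data) over all regions called in all 4 lists, with genotype only; the study's test on read counts could not be run on peak lists. Since that fit called no region, ranks among shared regions, a listed alternative, are reported beside it. Covered length was compared by exact permutation (scipy 1.17.1). Named were all 8 members with their start-site, gained, lost, called and strongest regions, further regions of Irf8, Irf5, Irf2 and Irf9 being described after their values were seen, and pathway genes with at least 2 gained or 2 lost regions. Motifs came from 201-base windows of the RefSeq mm10 genome and from RefSeq promoters. Marker lists were those for macrophages and 6 other cell types, and 1 further list is not reported here. Members and lists were chosen with earlier results of these data known.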

Additional observations from a re-analysis of the deposited data

How the results depend on the processing

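No gained Irf region was found as reported. There was 1 with peaks above the median area (1.89% of all regions) and 1 when peaks had to cover 50% of a region (4.10%). When 1 library was left out, 0 to 1 were gained, against 3.86% to 9.07% of all regions. Lost regions numbered 9 as reported and 3 with peaks above the median area (3.51% of all regions). They numbered 11 without WT replicate 1 (14.3% of all regions) and 9 without WT replicate 2 (7.65%). Without cKO replicate 1 there were 10 (7.65%), and without cKO replicate 2 there were 16 (12.7%). Of the 9 as reported, 7 remained lost with lists of equal length and 9 of 9 with the 50% cover. Limma on ranks among all peaks called 0 regions higher and 0 lower, and when 1 library was left out 0 higher and 0 to 2 lower. The planned fits on summed areas and on regions with 1 peak in every list, both ranked over the whole list, also called 0 higher and 0 lower. Ranks among shared regions called 3 higher and 5 lower of 51, against 5285 and 5162 of 44820 in the series. Lists of equal length also called 3 and 5, of 50, against 5028 and 4907 of 41715. Shared-rank versions of the former 2 fits were added after seeing the data. They called 3 and 5 of 47 with 1 peak in every list, against 5385 and 5200 of 42867 in the series. With summed areas they called 5 and 5 of 51, against 5680 and 5493 of 44820. Log2 areas called 8 and 8 of 51, against 9087 and 6315 of 44820. The fits on shared ranks, equal lists and log2 areas each kept all 8 calls. Leaving out 1 library from the shared ranks, also added, gave 0 to 1 higher and 0 to 1 lower; the lone library of a genotype is there assumed to vary like those of the other.

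Both genotypes carry the same replicate numbers, and the labels do not say what these mark. Replicate 2 had the longer list in each genotype. Deviations of the replicates correlated at 0.219 (ranks among all peaks) and 0.0846 (shared ranks) between the genotypes. With the replicate block, limma called 0 higher and 0 lower Irf regions on either scale, and 0 regions of the series, with 17321 and 17809 of 44820 at an unadjusted p under 0.05; within replicate numbers the covered length differed by -6.23 and -4.47 kb. Covered length, cKO minus WT, was 0.0415 kb with peaks above the median area, against -5.35 kb as reported; the cause was not tested.

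Start-site regions with small differences changed sign. At Irf1 the difference in normal score was 0.0244 with shared ranks, 0.124 with log2 area (log2 units), 0.0210 with equal lists and -0.101 to 0.0437 leaving out 1 library. At Irf9 it was 0.0408, 0.221 and 0.0388 under these settings, 0.00279 with summed areas and -0.0711 to 0.0703 leaving out 1 library. The Irf7 upstream region gave 0.0715 with log2 area and -0.203 to 0.0188 leaving out 1 library. Leaving out 1 library also gave -0.0244 to 0.0944 at Irf2-209, -0.0217 to 0.224 at Irf3, -0.0130 to 0.109 at Irf4 and -0.309 to 0.0855 at Irf5. The cause of these was not tested. All 8 regions past the test on shared ranks kept their direction under every alternative that gave a value. With 2 libraries a genotype and a calling limit in each list, a lost region can be one that lies slightly under that limit.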
